A study of Mus musculus with 12 samples.

Results

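Extracellular nucleotides and adenosine are read by a set of surface receptors, and 10 genes of that system are described here in peritoneal macrophages. They are the ion channel genes P2rx4 and P2rx7, the G-protein-coupled nucleotide receptor genes P2ry2, P2ry6, P2ry12, P2ry13 and P2ry14, the adenosine receptor genes Adora2a and Adora2b, and Entpd1, the gene of the surface enzyme CD39. They were taken by symbol from the deposited gene table, in which 10 of the 53465 rows carry these names. All 10 were among the 20419 genes tested, and each had a value of at least 1 in all 12 libraries.

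ATP leaves stressed, dying or activated cells and opens P2X channels, while ATP, ADP, UTP, UDP and UDP-glucose each act on particular P2Y receptors. CD39 strips ATP and ADP to AMP, CD73 turns AMP into adenosine, and the adenosine receptors A2a and A2b couple to Gs and raise cAMP. In macrophages P2X7 is known for triggering the NLRP3 inflammasome, and A2a for damping the output of inflammatory cytokines.

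The cells came from C57BL/6 mice at postnatal week 10, and total RNA was sequenced in 4 groups of 3 libraries. In the order used here the groups are the genotype label Lyz2Cre-BHLHE40-Fl with lipopolysaccharide (LPS), the same label under control conditions, the label Lyz2Cre with LPS, and Lyz2Cre under control conditions. All 4 groups carry Lyz2Cre, a Cre recombinase under the control of the lysozyme 2 gene of myeloid cells. BHLHE40 is a transcription factor of the basic helix-loop-helix class, whose part in the inflammatory response of macrophages is the question of the series. LPS is a cell wall component of Gram-negative bacteria sensed by TLR4, and neither its dose nor its duration is given in the sources used here. The labels do not say whether the 3 libraries of a group came from separate animals or cultures, so p-values reflect only how these samples vary, which may be technical.

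Values are, as deposited, each gene's reads over a factor set for its library, from 20489417 to 29354869 reads per library. This scaling leaves unequal totals, on average 30832914 and 20073802 in BHLHE40-Fl-labelled libraries with LPS and in their controls, and 37605645 and 22693602 in Lyz2Cre libraries with LPS and in their controls. Bringing the libraries to equal totals shifted the median log2 change of all genes to -0.56 for LPS in BHLHE40-Fl-labelled libraries, to -0.57 for LPS in Lyz2Cre, to 0.17 for the genotype label in controls and to 0.22 with LPS. Bhlhe40 RNA itself stood at 2232 ± 244 in BHLHE40-Fl-labelled libraries with LPS and 2467 ± 226 in Lyz2Cre with LPS (log2 difference -0.15, limma adjusted p = 0.201). In controls it stood at 7893 ± 239 with the BHLHE40-Fl label and 4976 ± 295 with Lyz2Cre (SD, n = 3 each), a log2 difference of 0.67 (limma adjusted p = 6.32e-06). It was not called lower under the label in either treatment and was called higher in controls, so every genotype difference below is given as one between libraries labelled Lyz2Cre-BHLHE40-Fl and Lyz2Cre. Whole-gene values do not show whether single exons are missing.

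The genotype labels also differed in markers of other cells. All 8 mesothelial markers were called higher under the BHLHE40-Fl label in both treatments. They summed to 1273 to 1605 with LPS and 1818 to 2496 in controls under that label, and to 7.8 to 27.8 and 10.1 to 19.4 in Lyz2Cre, where Upk3b was at 0 in all 6 libraries. All 6 fibroblast markers were likewise higher, at 10795 to 14331 and 9521 to 12070, against 3121 to 4608 and 1935 to 2102. All 7 T cell markers were lower, at sums of 0 to 7.7 and 8.8 to 16.5, against 77.3 to 91.7 and 85.9 to 102. Of the 8 general macrophage markers 7 were lower, at 87322 to 91097 and 60886 to 69288, against 160409 to 167805 and 117673 to 129681, and none of them was at 0 in any group. The 8 markers of resident large peritoneal macrophages summed to 469 to 581 and 576 to 678, against 429 to 455 and 506 to 547. Of these 2 were higher and 2 lower under BHLHE40-Fl with LPS, and 2 and 3 in controls. Of 5 mast cell markers 2 were lower in each treatment. Of 4 tested dendritic cell markers 2 were lower and 1 higher in each treatment, and of 5 B cell markers 1 was lower with LPS. Neutrophil markers summed to 336 to 420.2 and 360.2 to 579 under the BHLHE40-Fl label with LPS and in controls, and to 15212 to 15445 and 23508 to 27806 in Lyz2Cre. Most of the Lyz2Cre sums was Mmp8, which averaged 206 against 14408 with LPS and 366 against 24800 in controls, while Ly6g was at 0 in all 12 libraries. Of the 3 tested genes of that list 2 were lower under BHLHE40-Fl in each treatment, and 1 was higher in controls. The 4 monocyte markers summed to 17972 to 19192 and 174 to 212 under the BHLHE40-Fl label with LPS and in controls, and to 15895 to 17060 and 1374 to 1671 in Lyz2Cre. With LPS most of these sums was Vcan, and in Lyz2Cre controls most was Ly6c2, which averaged 0.5 in BHLHE40-Fl-labelled controls against 1217. Of the 4 monocyte markers 3 were called lower under BHLHE40-Fl in each treatment and 1 higher with LPS, and with LPS 3 were higher and 1 lower under BHLHE40-Fl and 2 higher in Lyz2Cre. The part of these differences in the LPS and genotype results below was not tested.

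Adora2a, which encodes the A2a adenosine receptor, spanned the widest range of the 10 genes. It stood at 2651, 2854 and 3206 in the BHLHE40-Fl-labelled libraries with LPS, and at 10.9, 18.9 and 21.0 in their controls. The Lyz2Cre libraries held 3880, 3939 and 4078 with LPS, and 228, 252 and 201 in controls. No 2 of the 4 groups overlapped: both LPS groups lay far above both controls, and the BHLHE40-Fl-labelled controls lay lowest. With LPS the mean was 171-fold that of controls under the BHLHE40-Fl label (log2 change 7.38 ± 0.17 SE, limma adjusted p = 1.29e-16) and 17.5-fold in Lyz2Cre (4.13 ± 0.17, limma adjusted p = 5.23e-13). The change was larger under the BHLHE40-Fl label by a log2 difference of 3.26 ± 0.24 (limma adjusted p = 2.31e-08). In controls the mean was 16.9 ± 5.33 with the BHLHE40-Fl label and 227 ± 25.6 with Lyz2Cre (SD, n = 3 each), 13.4-fold lower under BHLHE40-Fl (log2 -3.71, limma adjusted p = 6.87e-12). In bulk RNA such as this, fewer expressing cells and less RNA per cell cannot be told apart.

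With LPS the A2a receptor gene differed little between the labels, at 2903 ± 281 against 3966 ± 102 (SD, n = 3 each), a log2 difference of -0.45 (limma adjusted p = 0.0401). Leaving out a library ended the call at limma adjusted p = 0.124 and 0.0958 (BHLHE40-Fl-labelled LPS replicates 1 and 2), 0.0787, 0.0861 and 0.103 (Lyz2Cre LPS replicates 1, 2 and 3) and 0.0511 (Lyz2Cre control replicate 1). It was also lost with a pseudocount of 0.1 (0.068), with no filter (0.0617), with quantile normalization (0.257) and with equal totals (-0.17, limma adjusted p = 0.502).

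Adora2b, which encodes the A2b receptor and needs more adenosine for activation than A2a, had the same order of groups at lower values. It stood at 339, 305 and 329 in BHLHE40-Fl-labelled libraries with LPS and at 16.0, 21.3 and 20.3 in their controls. The Lyz2Cre libraries held 578, 727 and 742 with LPS and 68.5, 73.0 and 82.1 in controls. Again no groups overlapped. With LPS the mean was 16.9-fold that of controls under the BHLHE40-Fl label (log2 4.02 ± 0.15, limma adjusted p = 1.71e-13) and 9.15-fold in Lyz2Cre (3.17 ± 0.15, limma adjusted p = 6.46e-12). The LPS change was larger by 0.85 ± 0.22 under the BHLHE40-Fl label (limma adjusted p = 0.01). Between labels the gene was lower under BHLHE40-Fl in both treatments, 2.1-fold with LPS (limma adjusted p = 2.66e-05) and 3.88-fold in controls (limma adjusted p = 2e-08).

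Adora1, the gene of the Gi-coupled A1 receptor, held at most 8 reads in any library, with means of 7.67 in BHLHE40-Fl-labelled libraries with LPS and 0.733 in their controls (limma adjusted p = 0.00302, log2 change 2.21, and 1.07 with a pseudocount of 5). It was at 0 in the Lyz2Cre libraries with LPS.

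**Figure D1:**
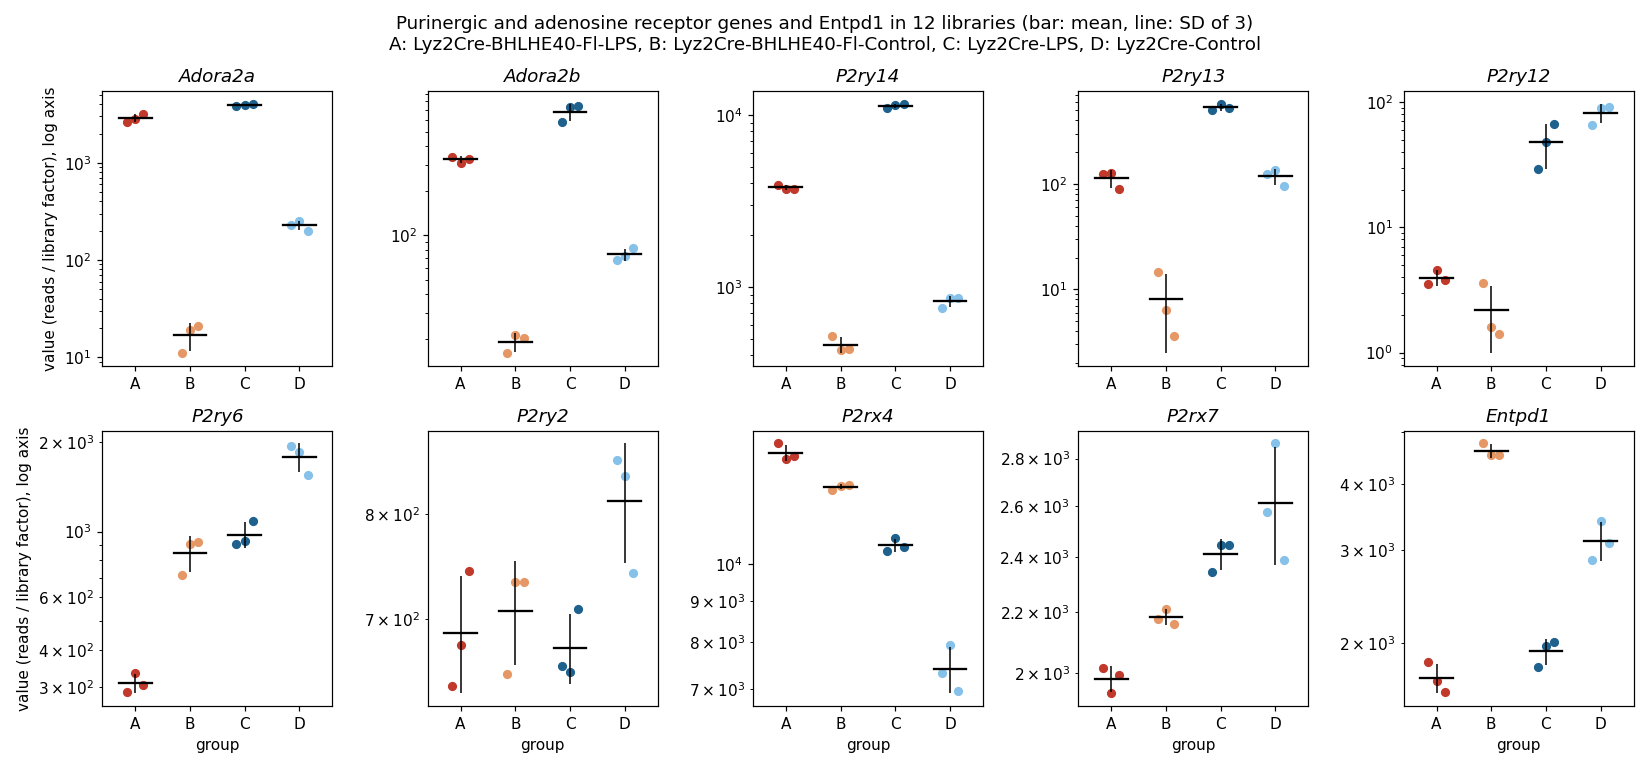
Deposited values (reads divided by a factor per library, log axes with different ranges) of the 10 genes in every library, 3 points per group with the mean as a bar and the SD as a line. For Adora2a the BHLHE40-Fl-labelled controls averaged 16.9 and the means of the other 3 groups lay at 227 or above, while P2ry12 lay under 5 in both BHLHE40-Fl-labelled groups.

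Entpd1 moved against the adenosine receptor genes. The CD39 gene stood at 1840, 1700.4 and 1619 in BHLHE40-Fl-labelled libraries with LPS and at 4767, 4531 and 4543 in their controls. In Lyz2Cre it stood at 1806, 1974 and 2013 with LPS and at 2873, 3396 and 3090.3 in controls. The 2 LPS groups overlapped at the bottom, and the BHLHE40-Fl-labelled controls lay highest, clear of all other libraries. Entpd1 fell with LPS under both labels, by 1.42 ± 0.07 on the log2 scale under BHLHE40-Fl (limma adjusted p = 1.54e-11) and by 0.69 ± 0.07 in Lyz2Cre (limma adjusted p = 3.71e-07), and the changes differed by -0.73 ± 0.11 (limma adjusted p = 6.29e-05). With equal totals the change in Lyz2Cre was -1.42, and with quantile normalization -1.14.

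Between labels the CD39 gene was 1.48-fold higher under BHLHE40-Fl in controls (4614 ± 133 against 3120 ± 263, SD, n = 3 each, limma adjusted p = 9.22e-06). With LPS the difference of -0.17 was not called (limma adjusted p = 0.0913). It turned to 0.12 with equal totals, and without BHLHE40-Fl-labelled LPS replicate 1 it was -0.22 and called (limma adjusted p = 0.0376). The mesothelial and fibroblast marker sums given above were higher in the same libraries in which Entpd1 was higher in controls, and their part was not tested.

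The enzymes that act beside CD39 were chosen with earlier results of these data known. Of 7 tested ectonucleotidase genes 1 was higher and 1 lower with LPS under the BHLHE40-Fl label (24.9% and 25.6% of all tested genes). In Lyz2Cre 1 was higher and 2 lower (25% and 23.9%). With equal totals 0 were higher and 2 lower under the BHLHE40-Fl label. Enpp1, whose enzyme cleaves ATP to AMP, was the lower one under the BHLHE40-Fl label, at 488 with LPS against 1066 in controls, and was also lower in Lyz2Cre (672 against 1165, limma adjusted p = 6.81e-09 and 6.59e-07). Between labels in controls 2 were higher and 2 lower (15% and 16.6% of all tested genes). Nt5e, the CD73 gene, stood at 11.6, 2.4 and 4.3 in BHLHE40-Fl-labelled controls and at 110.1, 98.9 and 171 in Lyz2Cre controls (log2 difference -4.35, limma adjusted p = 2.67e-07). Acpp, which encodes prostatic acid phosphatase, another enzyme able to make adenosine from AMP, averaged 132 against 3746 in the same groups (limma adjusted p = 4.56e-15). With LPS both remained lower under the BHLHE40-Fl label (Nt5e 4.47 against 43.7, Acpp 219.7 against 8643, limma adjusted p = 1.89e-05 and 2.36e-15).

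P2ry12, P2ry13 and P2ry14 encode Gi-coupled receptors, the first 2 for ADP and the third for UDP-glucose. They lie next to each other on the minus strand of chromosome 3 (mm10), within 149017 bases: P2ry14 at chr3:59113855-59153618, P2ry13 at chr3:59207892-59210882 and P2ry12 at chr3:59216272-59262871. All 3 sit inside Med12l, a Mediator subunit gene read from the opposite strand, which shares 9 exon bases with P2ry12 and none with the other 2. The strand setting of the counting is not given in the sources used here. Med12l itself stood at 36.8 and 27.7 under the BHLHE40-Fl label with LPS and in controls, and at 124 and 35.7 in Lyz2Cre.

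P2ry14 was the most abundant gene of the trio. It stood at 3929, 3711 and 3714 in BHLHE40-Fl-labelled libraries with LPS and at 515, 428 and 433 in their controls. The Lyz2Cre libraries held 10982, 11375 and 11589 with LPS and 758, 862 and 858 in controls. No groups overlapped, and the order was Lyz2Cre with LPS, BHLHE40-Fl with LPS, Lyz2Cre controls and BHLHE40-Fl controls. With LPS the mean was 8.25-fold that of controls under the BHLHE40-Fl label (log2 3.05 ± 0.08, limma adjusted p = 7.98e-16) and 13.7-fold in Lyz2Cre (3.78 ± 0.08, limma adjusted p = 8.96e-17). Here the change was smaller under the BHLHE40-Fl label, with a log2 difference of -0.73 ± 0.11 (limma adjusted p = 0.000117), and of -0.36 after quantile normalization (limma adjusted p = 0.0421). The gene was 2.99-fold lower under that label with LPS and 1.8-fold lower in controls (limma adjusted p = 4.35e-11 and 1.2e-07).

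P2ry13 had few reads in one group. It stood at 123, 127 and 88.9 in BHLHE40-Fl-labelled libraries with LPS, and at 14.5, 6.3 and 3.6 in their controls, which held 20, 8 and 5 reads. The Lyz2Cre libraries held 502, 579 and 527 with LPS and 124, 135 and 96.3 in controls. The BHLHE40-Fl-labelled libraries with LPS overlapped the Lyz2Cre controls, and no other pair of groups overlapped. The mean with LPS was 13.9-fold that of controls under the BHLHE40-Fl label (log2 3.81 ± 0.31, limma adjusted p = 9.01e-09) and 4.52-fold in Lyz2Cre (2.18 ± 0.31, limma adjusted p = 1.15e-05, and 1.45 with equal totals). The 2 changes differed by 1.63 ± 0.44 (limma adjusted p = 0.0142). Under the BHLHE40-Fl label P2ry13 was 4.74-fold lower with LPS (limma adjusted p = 1.67e-05) and 14.6-fold lower in controls (limma adjusted p = 1.98e-08). Without BHLHE40-Fl-labelled control replicate 1 the mean of these controls was 4.95, and the folds of 13.9 and 14.6 became 22.8 and 23.9. The difference of the 2 LPS changes was then 2.10, and over all left-out libraries it ran from 1.23 to 2.10 and was called each time.

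P2ry12, known as the platelet ADP receptor and as a marker of microglia, held few reads under the BHLHE40-Fl label. It stood at 3.5, 4.6 and 3.8 in those libraries with LPS and at 3.6, 1.6 and 1.4 in their controls, 9 reads in each group. In Lyz2Cre it stood at 29.2, 48.3 and 66.9 with LPS and at 65.4, 90.0 and 92.1 in controls, or 99 and 306 reads. Every BHLHE40-Fl-labelled library lay below every Lyz2Cre library. The log2 difference between labels was -3.24 ± 0.39 with LPS (limma adjusted p = 3.9e-06) and -4.75 ± 0.39 in controls (limma adjusted p = 2.99e-08), values that so few reads and the pseudocount limit.

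Neither LPS change of P2ry12 was called, 0.69 under the BHLHE40-Fl label (limma adjusted p = 0.161) and -0.83 in Lyz2Cre (limma adjusted p = 0.0974). The Lyz2Cre change was called with a pseudocount of 5 (limma adjusted p = 0.0309), with equal totals (-1.54, limma adjusted p = 0.00272), with the compared groups alone (0.0302) and by edgeR on recovered reads (-0.90, adjusted p = 0.00703), and without Lyz2Cre LPS replicate 1 it was -0.51 (limma adjusted p = 0.352). The difference of the 2 changes, 1.52 (limma adjusted p = 0.0703), was called without BHLHE40-Fl-labelled control replicate 1 (1.81, 0.0296) or Lyz2Cre LPS replicate 3 (1.79, 0.047), with a filter at 5 (1.52, 0.0451) and with equal totals (1.79, 0.0325). Of 3 tested platelet markers 1 was lower under the BHLHE40-Fl label in each treatment, and none was higher. The 5 genes of the list summed to 5.1 to 10.7 and 7.2 to 12.3 under the BHLHE40-Fl label with LPS and in controls, and to 48.3 to 70.0 and 11.8 to 17.8 in Lyz2Cre. Gp9 was at 0 in all 12 libraries. Their part in the P2ry12 values was not tested.

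Promoter sequence could be set beside these genes for 8 of the 10, in 14 RefSeq windows on GRCm38.p6 from 250 bases before to 50 after a start. The 3 windows shown are those of a gene that differed strongly between labels, a gene that changed strongly with LPS and a gene with small differences in both, and they were chosen after the values were seen. Capitals mark the matches, which are CACGTG, the E-box that BHLHE40 is known to bind, in P2ry12 and P2ry2, an NF-kB consensus in P2ry12, and the AP-1 motif TGANTCA in P2ry14. All are read 5′ to 3′ on the minus strand.
P2ry12 promoter, chr3:59262936-59263235: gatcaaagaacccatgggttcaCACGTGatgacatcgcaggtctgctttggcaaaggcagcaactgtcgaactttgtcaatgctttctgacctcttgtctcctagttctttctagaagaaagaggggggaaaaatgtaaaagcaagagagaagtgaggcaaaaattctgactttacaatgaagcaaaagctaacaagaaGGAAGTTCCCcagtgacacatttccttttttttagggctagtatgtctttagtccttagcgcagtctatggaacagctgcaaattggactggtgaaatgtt
P2ry14 promoter, chr3:59153443-59153742: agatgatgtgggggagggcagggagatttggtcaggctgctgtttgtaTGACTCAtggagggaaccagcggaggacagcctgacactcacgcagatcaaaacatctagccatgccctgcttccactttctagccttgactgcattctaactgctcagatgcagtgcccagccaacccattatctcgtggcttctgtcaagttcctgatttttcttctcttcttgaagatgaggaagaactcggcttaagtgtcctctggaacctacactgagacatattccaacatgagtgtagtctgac
P2ry2 promoter, chr7:101012004-101012303: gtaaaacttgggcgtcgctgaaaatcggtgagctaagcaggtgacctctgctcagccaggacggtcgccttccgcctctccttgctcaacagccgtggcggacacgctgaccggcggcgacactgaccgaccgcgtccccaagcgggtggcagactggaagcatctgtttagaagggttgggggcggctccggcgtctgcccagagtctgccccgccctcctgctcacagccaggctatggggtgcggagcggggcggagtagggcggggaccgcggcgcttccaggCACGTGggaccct
Both strands were searched for 6 motifs, and none of the marked matches overlaps another. The E-box lies 228 bases upstream of the P2ry12 start and 37 bases downstream of this P2ry2 start, and a further P2ry2 window that overlaps this one holds the same match. Over 32851 RefSeq promoter windows of the same length 7.15% hold the E-box, 8.46% the NF-kB consensus and 7.81% the AP-1 motif. AP-1 also matched a further P2ry14 window and 1 of P2rx7, and the PU.1 core GAGGAAGT (3.2% of all windows) matched 1 of P2rx7. The interferon response element, GAAA, 2 bases of any kind and GAAA (3.44%), and the cAMP response element TGACGTCA (1.79%) matched none of the 14. P2ry12 and P2ry2 both carry the E-box letters, and the part of these letters in the label differences was not tested. A match is a description of these letters and says nothing of binding.

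P2ry6 and P2ry2 encode Gq-coupled receptors, for UDP and for ATP and UTP, and lie 21918 bases apart on chromosome 7. P2ry6 stood at 288, 334 and 304 in BHLHE40-Fl-labelled libraries with LPS and at 712.5, 909.5 and 925 in their controls. The Lyz2Cre libraries held 912, 932 and 1089 with LPS and 1937, 1849 and 1556 in controls. The BHLHE40-Fl-labelled libraries with LPS lay lowest and the Lyz2Cre controls highest, with the other 2 groups overlapping between them. P2ry6 fell with LPS under both labels, by 1.45 ± 0.11 on the log2 scale under BHLHE40-Fl and by 0.86 ± 0.11 in Lyz2Cre (limma adjusted p = 3.91e-09 and 3.54e-06, the second change -1.59 with equal totals). The difference of -0.59 ± 0.16 between these changes was called (limma adjusted p = 0.0138) but not after quantile normalization (limma adjusted p = 0.0604). Under the BHLHE40-Fl label the gene was 3.17-fold lower with LPS and 2.1-fold lower in controls (limma adjusted p = 2.32e-09 and 5.67e-07).

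P2ry2 had the narrowest range of group means among the P2Y genes. It stood at 644, 678 and 744 in BHLHE40-Fl-labelled libraries with LPS and at 654, 734 and 734 in their controls, which overlap. In Lyz2Cre it stood at 660.0, 655 and 709 with LPS and at 857, 839.8 and 743 in controls, without overlap. Its fall of 0.27 on the log2 scale with LPS in Lyz2Cre was called (limma adjusted p = 0.016). The call was lost without Lyz2Cre control replicate 1 or 2 (limma adjusted p = 0.069 and 0.0558) or Lyz2Cre LPS replicate 1 or 2 (0.0515 and 0.0563), and with equal totals the change was -0.99. The other P2ry2 differences were not called. For LPS under the BHLHE40-Fl label it was -0.04 (limma adjusted p = 0.743), 0.01 without BHLHE40-Fl-labelled LPS replicate 1, and -0.66 and called with equal totals. Between labels it was 0.03 with LPS (limma adjusted p = 0.851), -0.03 without BHLHE40-Fl-labelled LPS replicate 3, and 0.31 and called with equal totals. In controls it was -0.20 (limma adjusted p = 0.0923). Leaving out Lyz2Cre control replicate 3 made it -0.26 and called (limma adjusted p = 0.037).

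P2rx4 and P2rx7, whose products are ATP-gated cation channels, lie 16111 bases apart on chromosome 5. P2rx4, which is known to sit largely on lysosomes, stood at 14134, 13513 and 13619.8 in BHLHE40-Fl-labelled libraries with LPS and at 12382, 12502 and 12556 in their controls. The Lyz2Cre libraries held 10391, 10777 and 10498 with LPS and 7326, 7933 and 6958 in controls. No groups overlapped, and all BHLHE40-Fl-labelled libraries lay above all Lyz2Cre libraries. P2rx4 was 1.3-fold higher under that label with LPS (log2 0.38 ± 0.06, limma adjusted p = 9.73e-05, and 0.67 with equal totals) and 1.69-fold higher in controls (0.75 ± 0.06, limma adjusted p = 2.87e-08).

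The LPS change of P2rx4 depended on the scaling. With the deposited scaling it was 0.14 under the BHLHE40-Fl label (limma adjusted p = 0.0727) and 0.51 in Lyz2Cre (limma adjusted p = 1.66e-06). With equal totals it was -0.48 and -0.22 (limma adjusted p = 2.88e-06 and 0.00654), and with quantile normalization -0.84 and -0.46. Relative to the median of all genes the change in Lyz2Cre was 0.51 with the deposited scaling and 0.35 with equal totals, and under the BHLHE40-Fl label it was 0.19 and 0.08. The change under the BHLHE40-Fl label minus that in Lyz2Cre was -0.37 ± 0.09 (limma adjusted p = 0.00572), a smaller rise with the deposited scaling. With equal totals this difference was -0.26 (limma adjusted p = 0.0453) and with quantile normalization -0.38 (limma adjusted p = 0.00382), both a larger fall. By edgeR it was -0.31 (adjusted p = 0.0411).

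P2rx7, the channel gene upstream of the inflammasome, varied within a narrow range. It stood at 2014, 1937 and 1995 in BHLHE40-Fl-labelled libraries with LPS and at 2178, 2211 and 2159 in their controls. In Lyz2Cre it stood at 2343, 2443 and 2443 with LPS and at 2576, 2867 and 2389 in controls. All BHLHE40-Fl-labelled libraries lay below all Lyz2Cre libraries, by small margins. The log2 difference between labels was -0.28 ± 0.07 with LPS (limma adjusted p = 0.00323) and -0.25 ± 0.07 in controls (limma adjusted p = 0.00787). With equal totals these were 0.00 and -0.08 and not called (limma adjusted p = 0.989 and 0.425), nor were they with quantile normalization (limma adjusted p = 0.18 and 0.134). The control difference was also not called without Lyz2Cre control replicate 2 (-0.18, limma adjusted p = 0.0517).

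The LPS changes of P2rx7 were -0.14 under the BHLHE40-Fl label and -0.11 in Lyz2Cre, neither called (limma adjusted p = 0.103 and 0.199). The 95% interval of the change in Lyz2Cre ran from -0.26 to 0.03. Both were called with equal totals (-0.76 and -0.84), with quantile normalization (-0.54 and -0.56) and by edgeR (-0.19 and -0.24, adjusted p = 0.0384 and 0.0127). The Lyz2Cre change was also called without Lyz2Cre control replicate 3 (-0.17, limma adjusted p = 0.0464). The difference of the changes was -0.03 (limma adjusted p = 0.892), and 0.03 without that library.

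Levels can be compared between genes only per length. Per kb of merged exons P2rx4 was highest in every group, with means of 1958 and 1776 under the BHLHE40-Fl label with LPS and in controls, and 1503 and 1054 in Lyz2Cre. P2ry12 was lowest in every group, at 1.56, 0.864, 18.9 and 32.4 in the same order. Adora2a came second with LPS under both labels, at 948 and 1295 per kb, against 5.53 and 74.1 in the controls. P2ry14 followed it in Lyz2Cre with LPS at 1023 per kb. Merged exons span 11059 bases for P2ry14 and 3062 for Adora2a, and the length of the transcripts present was not measured. Before division by length the 2 genes averaged 11315 and 3966 in that group, so their order rests on the annotated lengths. In controls the places behind P2rx4 were held by Entpd1 at 827 per kb under the BHLHE40-Fl label, and by P2ry6 at 617 and Entpd1 at 559 in Lyz2Cre.

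**Figure D2:**
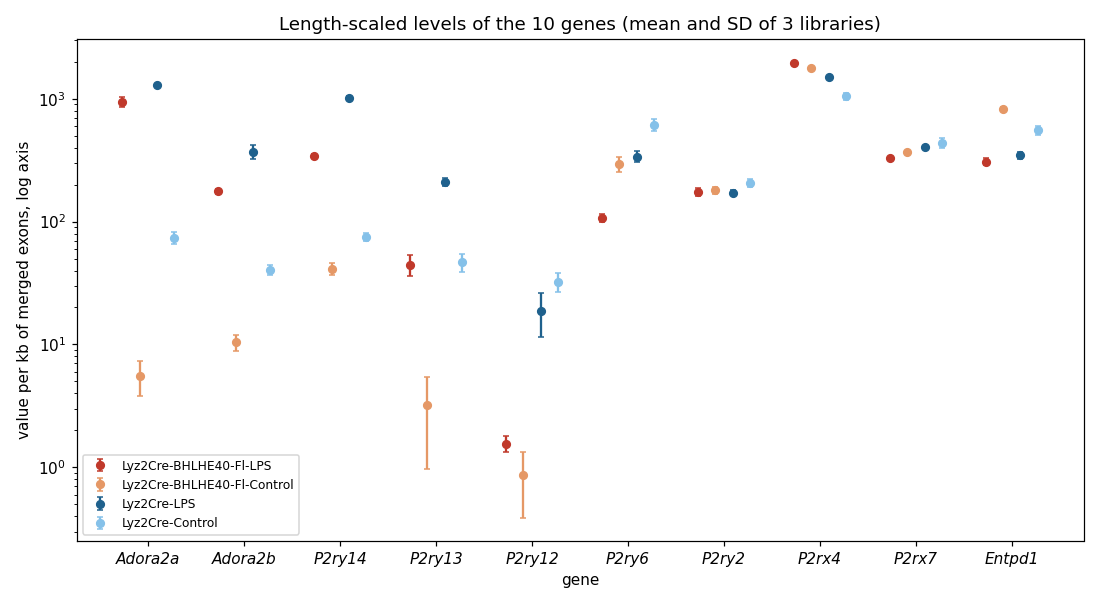
Mean value per kb of merged exons (log axis) of the 10 genes in the 4 groups, with the SD of 3 libraries as error bars. P2rx4 was highest in each group, between 1054 and 1958, and P2ry12 lowest, between 0.864 and 32.4.

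Counted together, 4 of the 10 genes were called higher with LPS under the BHLHE40-Fl label, Adora2a, Adora2b, P2ry13 and P2ry14, where 24.9% of all tested genes were called higher. The 2 called lower were P2ry6 and Entpd1, where 25.6% of all were. In Lyz2Cre the same 4 and P2rx4 were called higher (25% of all tested genes) and P2ry2, P2ry6 and Entpd1 lower (23.9%). The balance of these calls depended on the scaling. With equal totals 4 were higher and 5 lower under BHLHE40-Fl and 4 higher and 6 lower in Lyz2Cre, with quantile normalization 4 and 4, and 4 and 5, and by edgeR 4 and 3, and 5 and 5. The groups did not overlap for 8 of the 10 under each label, as for 55.6% of all tested genes under BHLHE40-Fl and 54.5% in Lyz2Cre. In either direction 6 of the 10 were called under BHLHE40-Fl, where 50.5% of all tested genes were, and 8 of the 10 in Lyz2Cre, where 48.9% were. The median log2 change of the 10 was 0.42 under the BHLHE40-Fl label and 0.20 in Lyz2Cre, against -0.05 and 0.00 over all tested genes.

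Between labels most of the 10 were lower under BHLHE40-Fl. In either direction 8 of the 10 were called with LPS, where 37.4% of all tested genes were, and 9 of the 10 in controls, where 31.6% were. With LPS 7 of the 10 were called lower, where 19.8% of all tested genes were, and P2rx4 alone was called higher, where 17.7% were. In controls 7 were called lower (16.6% of all) and 2 higher, P2rx4 and Entpd1 (15%). The groups did not overlap for 8 of the 10 with LPS and for all 10 in controls, as for 45.9% and 41.3% of all tested genes. The medians of the 10 were -0.76 with LPS and -0.96 in controls, against -0.02 and 0.00 over all tested genes. With the deposited scaling the genes called lower were the same in both treatments, namely Adora2a, Adora2b, P2rx7, P2ry6, P2ry12, P2ry13 and P2ry14. With equal totals 5 were lower and 2 higher with LPS, and 6 lower and 2 higher in controls. Quantile normalization gave 5 lower and 1 higher, and 6 and 2. Under both scalings P2rx7 was called in neither treatment, and Adora2a was not called with LPS.

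The LPS change differed between labels for 7 of the 10, where it did for 18.8% of all tested genes. It was called larger in the BHLHE40-Fl-labelled libraries for Adora2a, Adora2b and P2ry13, where 9.52% of all tested genes were, and lower for P2rx4, P2ry6, P2ry14 and Entpd1, where 9.31% were. The median of the 10 differences was 0.10, against -0.03 over all tested genes. With equal totals the higher calls made up 21.5% of all calls for LPS under the BHLHE40-Fl label and 20.1% in Lyz2Cre, against 49.3% and 51.2% with the deposited scaling. For the genotype label they made up 73.5% with LPS and 66.9% in controls, against 47.2% and 47.5%. For the difference of the LPS changes they made up 64%, and 60.8% by edgeR, against 50.5%. Mitochondrial transcripts took 0.756% to 1.92% and 1.2% to 1.63% of reads under the BHLHE40-Fl label with LPS and in controls, and 0.486% to 0.6% and 0.985% to 1.37% in Lyz2Cre.

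**Figure D3:**
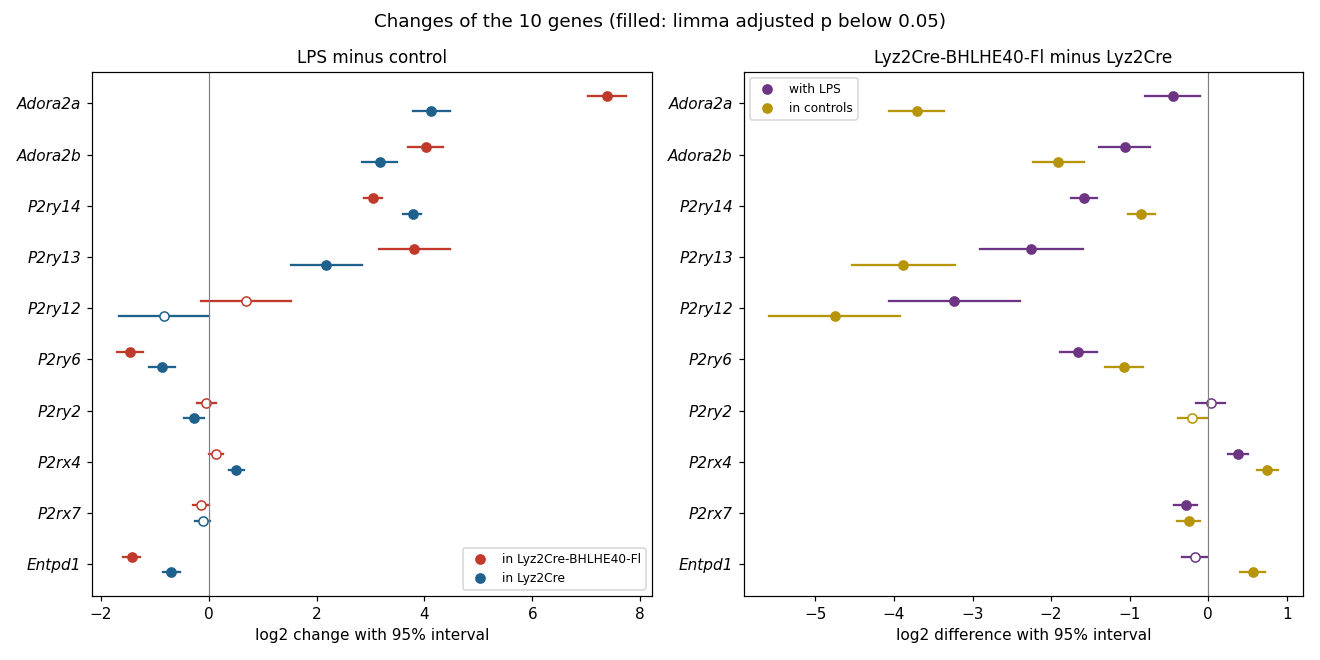
Log2 changes of the 10 genes with 95% intervals from limma, LPS minus control under each label on the left and Lyz2Cre-BHLHE40-Fl minus Lyz2Cre in each treatment on the right. Adora2a had the largest LPS change, 7.38 under the BHLHE40-Fl label, and P2ry12 the largest difference between labels, -4.75 in controls.

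The other receptor genes of these families moved in both directions. Of 7 tested, LPS under the BHLHE40-Fl label had 1 higher and 3 lower (median -0.92), where 24.9% and 25.6% of all tested genes were. LPS in Lyz2Cre had 0 higher and 3 lower (median -0.28), where 25% and 23.9% of all were. P2ry1, the gene of a Gq-coupled ADP receptor, was lower with LPS under both labels, at 109 against 491 in controls under BHLHE40-Fl and 80.2 against 351 in Lyz2Cre (limma adjusted p = 1.21e-10 and 1.82e-10). Between labels 2 were higher and 2 lower with LPS (17.7% and 19.8% of all tested genes). In controls 3 were higher and 3 lower (15% and 16.6%). P2rx5, another ATP-gated channel gene, stood at 4.27 in BHLHE40-Fl-labelled controls against 34.9 in Lyz2Cre controls (limma adjusted p = 5.08e-05).

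Uptake and turnover of adenosine was measured by 11 tested genes. With LPS 4 were higher and 5 lower under the BHLHE40-Fl label (24.9% and 25.6% of all tested genes). In Lyz2Cre 4 were higher and 3 lower (25% and 23.9%). Slc28a2, a sodium-coupled nucleoside transporter gene, averaged 5684 with LPS against 622 in controls under the BHLHE40-Fl label, and 22296 against 1037 in Lyz2Cre (limma adjusted p = 6.54e-13 and 1.17e-14). With equal totals 3 were higher and 7 lower under the BHLHE40-Fl label, and 4 and 7 in Lyz2Cre. Dpp4, the gene of the peptidase that anchors adenosine deaminase on human cells, averaged 71.9 in BHLHE40-Fl-labelled controls against 4.47 in Lyz2Cre controls (limma adjusted p = 5.67e-08). Pnp and Pnp2, near-identical purine nucleoside phosphorylase genes at overlapping positions, were both called higher with LPS under both labels, but reads cannot be split between them with certainty.

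Of 6 tested genes of ATP release 2 were higher and 4 lower with LPS under the BHLHE40-Fl label (24.9% and 25.6% of all tested genes). In Lyz2Cre 1 was higher and 5 lower (25% and 23.9%). The medians of the 6 were -0.46 and -0.39, against -0.05 and 0.00 over all tested genes. Slc17a9, the vesicular nucleotide transporter gene, averaged 28.1 with LPS against 96 in controls under BHLHE40-Fl and 45.9 against 133 in Lyz2Cre (limma adjusted p = 1.6e-05 and 7.99e-05). Gja1, the connexin 43 gene, was higher with LPS, at 262 against 168 and at 291 against 40.8 (limma adjusted p = 0.00622 and 2.28e-10), the first of which became a log2 change of 0.01 with equal totals.

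Of 10 tested genes linked to the inflammasome, 8 were higher and 1 lower with LPS under each label. Their medians were 2.14 under BHLHE40-Fl and 1.99 in Lyz2Cre. Over all tested genes 24.9% were higher and 25.6% lower under BHLHE40-Fl, and 25% and 23.9% in Lyz2Cre. With equal totals 6 of the 10 were higher and 3 lower under each label. Nlrp3, the sensor gene, averaged 11233 with LPS against 99.7 in controls under the BHLHE40-Fl label and 17603 against 957 in Lyz2Cre (limma adjusted p = 6.85e-21 and 1.06e-17). Casp4, the mouse caspase-11 gene, averaged 9873 against 504 and 12776 against 656 (limma adjusted p = 8.71e-17 and 1.7e-16). Kcnk6, the gene of the potassium channel TWIK2, was the lower one, at 444 against 1254 and at 161 against 973. Between labels 7 of the 10 were lower under BHLHE40-Fl in each treatment, with 2 higher with LPS and 1 in controls. Over all tested genes 19.8% were lower and 17.7% higher with LPS, and 16.6% and 15% in controls. With equal totals 2 of the 10 were lower and 3 higher with LPS, and 5 lower and 3 higher in controls.

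Below the Gs-coupled adenosine receptors, 5 of 14 tested genes were higher and 7 lower with LPS under the BHLHE40-Fl label. In Lyz2Cre 4 were higher and 9 lower. Over all tested genes the shares were 24.9% and 25.6%, and 25% and 23.9%. With equal totals 3 of the 14 were higher under each label, and 10 and 11 lower. Pde4b, whose enzyme degrades cAMP, averaged 4086 with LPS against 134 in controls under BHLHE40-Fl and 7206 against 519 in Lyz2Cre (limma adjusted p = 1.48e-17 and 6.86e-16). Adcy9, an adenylyl cyclase gene, averaged 127 against 638 and 96.1 against 494 (limma adjusted p = 4.65e-12 and 5.1e-12). Creb5, a gene of the CREB family of transcription factors, was higher with LPS under both labels and lower under BHLHE40-Fl in both treatments, at 885 against 1938 with LPS and 85.5 against 433 in controls.

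Below the Gq- and Gi-coupled P2Y receptors 6 of 12 tested genes were higher and 4 lower with LPS under each label. Over all tested genes 24.9% were higher and 25.6% lower under BHLHE40-Fl, and 25% and 23.9% in Lyz2Cre. With equal totals the balance of the 12 turned, to 3 higher and 8 lower under BHLHE40-Fl and 2 higher and 7 lower in Lyz2Cre. Gna15, the gene of the Gq family subunit of blood cells, averaged 1283 with LPS against 160.1 in controls under the BHLHE40-Fl label and 1321 against 1110 in Lyz2Cre (a log2 change of 0.25, and -0.48 with equal totals), and the changes differed by 2.74 ± 0.10 (limma adjusted p = 8.8e-12). Pik3cg, the gene of a kinase activated by Gi beta-gamma subunits, was lower under BHLHE40-Fl, at 1517 against 8552 with LPS and 1787 against 3803 in controls (limma adjusted p = 6.42e-15 and 2.04e-10). Plcb2, the phospholipase gene, was lower with LPS under both labels, at 423 against 1695 and 347 against 1421.

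**Figure D4:**
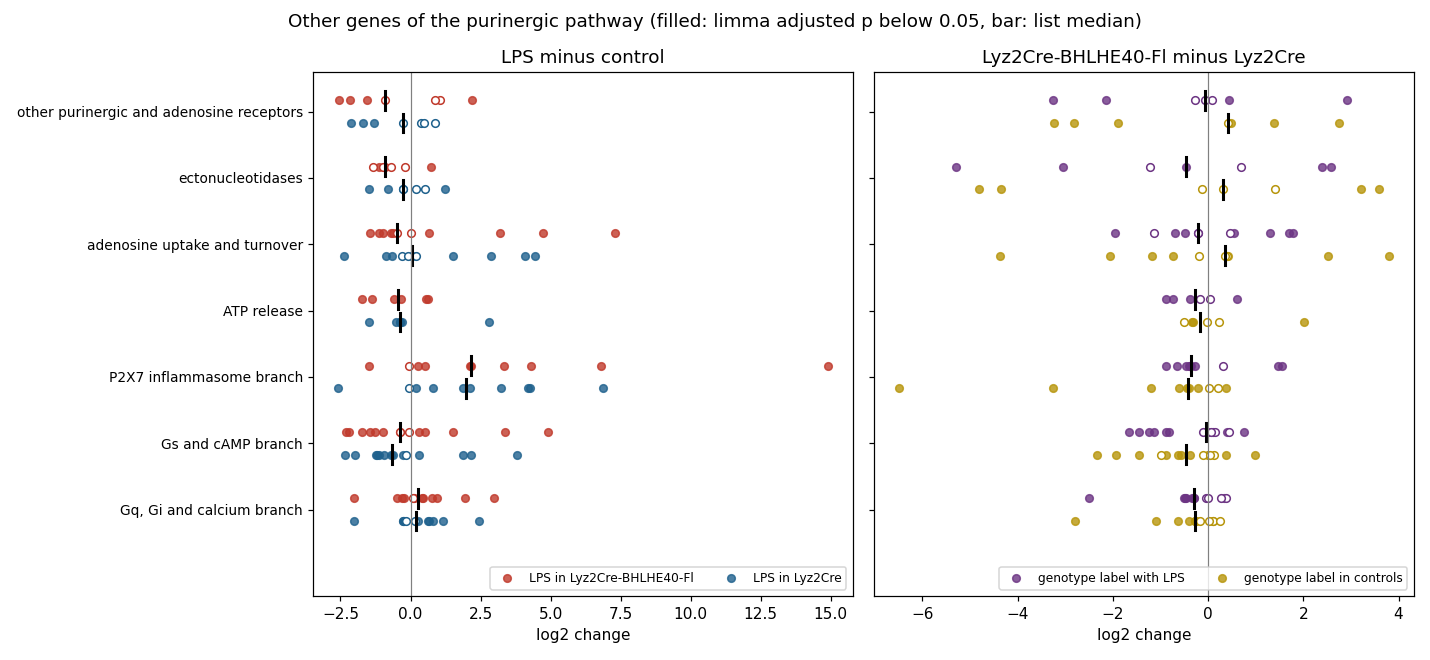
Log2 changes of the other tested pathway genes, 1 point per gene, LPS minus control on the left and Lyz2Cre-BHLHE40-Fl minus Lyz2Cre on the right, with list medians as bars. The inflammasome genes had medians of 2.14 and 1.99 for LPS, with Il1b as the point farthest to the right at 14.9. The medians of the other lists shown lay between -0.92 and 0.26 for LPS.

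The genes most like 3 of the 10 across the 12 libraries were looked up among 10258 genes with a mean value of at least 50, by Pearson correlation of log2(value + 1). Adora2a was nearest to Arhgef37, Ehd1 and Nlrp3 (r = 0.998, 0.998 and 0.997), of which Ehd1, an endosomal recycling gene, averaged 15552 and 329 under the BHLHE40-Fl label with LPS and in controls, and 15491 and 2153 in Lyz2Cre. Adora2b was nearest to Rab32, Upp1 and Sod2 (r = 0.997, 0.997 and 0.996). P2ry13 was nearest to H2-M2, Gcnt2 and Aoah (r = 0.991, 0.987 and 0.987), and H2-M2, a nonclassical MHC class I gene, averaged 3603 and 64.2 under the BHLHE40-Fl label and 33201 and 3091 in Lyz2Cre. The 12 points are 4 groups of 3 libraries that share treatment, label and scaling, so these coefficients describe differences between the groups. They do not require the same order of groups. Ehd1 averaged slightly higher with LPS under BHLHE40-Fl than in Lyz2Cre, whereas Adora2a averaged lower.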

How the data were processed

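Total RNA of peritoneal macrophages was purified on columns and sequenced on an Illumina platform, per the labels' protocols. The submitters' processing notes name mm10, STAR, Cufflinks and Cuffdiff, with no role or version. The sources used here give no read counter, annotation or strand setting. The unit of the deposited values is a signal, as the numbers themselves show: whole reads divided by 1 factor per library, rounded to 1 decimal. With a tolerance of 0.06, 100% of the values in each library were whole multiples of 1 step, worth 0.725 to 1.56 per read. The number of replicates and reads limits the precision, and low genes rest on few reads.

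The 20419 genes that reached a value of 1 in 3 or more libraries were tested. A limma 3.58.1 trend model (R 4.3.3) of log2(value + 1) took all 12 libraries and 1 mean per group, and gave LPS under each label, the label difference with LPS and in controls, and the interaction. P-values were adjusted by Benjamini-Hochberg over all tested genes, and a gene was called below 0.05. The scale log2(value + 1) understates the change of low genes, and folds are ratios of group means. Where a symbol had several rows, the row with the higher mean was used. The test was also run on simulated reads. These had few changed genes and matched scaling, unlike these data, so they do not measure the accuracy of the calls here.

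edgeR 4.0.16 (quasi-likelihood, TMM) on the recovered reads called 10131 genes for LPS under the BHLHE40-Fl label, 9799 for LPS in Lyz2Cre, 6999 and 6823 for the genotype label with LPS and in controls, and 3765 for the interaction. Also tried were a filter at 5 or none, pseudocounts of 0.1 and 5, quantile normalization, equal library totals, the compared groups alone, a replicate block, and each library left out in turn.

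The 10 genes, the pathway lists and the tests were chosen with earlier results of these data known, and the motifs after the values were seen. All 10 genes are named. Of each pathway list the rule allows up to 3 called genes with the largest change for LPS under the BHLHE40-Fl label and up to 2 for the genotype label in controls. Kcnk6 is outside the rule and was chosen after its values were seen, and not all eligible genes are named. Genes most alike were sought for the 3 members with the widest range of group means, leaving out predicted gene models and clone names. Positions and exon lengths are from GENCODE M21 (GRCm38), promoter windows from RefSeq. Libraries within a group were further apart than sampling noise (chi-square per degree of freedom 7.35 to 72.2 over 12 pairs).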

Additional observations from a re-analysis of the deposited data

Results flagged for a closer look

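The LPS change of 7 of the 10 genes differed between the libraries labelled Lyz2Cre-BHLHE40-Fl and Lyz2Cre by the interaction test of limma. Over all tested genes 18.8% were called in that test. Each value below is the log2 change with LPS under the BHLHE40-Fl label minus that in Lyz2Cre. It was 3.26 for Adora2a (limma adjusted p = 2.31e-08), 1.63 for P2ry13 (0.0142) and 0.85 for Adora2b (0.01). It was -0.73 for P2ry14 (0.000117), -0.73 for Entpd1 (6.29e-05), -0.59 for P2ry6 (0.0138) and -0.37 for P2rx4 (0.00572). The difference for P2ry6 was not called after quantile normalization (-0.47, limma adjusted p = 0.0604). Groups of 3 libraries were too small for a test of outlying libraries.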

How the results depend on the processing

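The count of the 10 genes called stayed within 1.5 times its value in each of the 5 comparisons under the alternatives run, but the balance of higher and lower LPS calls turned with the scaling. It was 4 higher and 2 lower under BHLHE40-Fl and 5 and 3 in Lyz2Cre, and with equal library totals 4 and 5, and 4 and 6. Between labels the balance was 1 higher and 7 lower with LPS, and 2 and 7 in controls. Equal library totals made it 2 and 5, and 2 and 6. Of 1040 other values under an alternative, 990 kept direction and call, 19 gained a call, 19 lost one and 12 changed sign. Left-out libraries gave counts of 6 for LPS under the BHLHE40-Fl label, 7 to 9 for LPS in Lyz2Cre, 8 to 10 for the label in controls, 7 to 8 with LPS and 7 to 8 for the interaction. For LPS, P2rx4 became -0.48 under BHLHE40-Fl and -0.22 in Lyz2Cre with equal library totals, and -0.84 and -0.46 with quantile normalization. With a library left out, the P2ry2 change with LPS under the BHLHE40-Fl label ran from -0.10 to 0.01, its label difference with LPS from -0.03 to 0.07, and the P2rx7 interaction from -0.10 to 0.03. With equal totals the label difference with LPS became 0.00 for P2rx7 and 0.12 for Entpd1. The P2rx7 interaction became 0.08 with equal totals, 0.02 with quantile normalization and 0.04 by edgeR. The cause was not tested.

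No shared deviation was seen between same-numbered libraries. Over 18 such pairs the correlation of deviations ran from -0.066 to 0.028, and 2 of 12 libraries correlated best with their own number. Whether same-numbered libraries share an animal or culture cannot be told from these correlations. With the replicate block the 10 genes gave 6, 8, 9, 8 and 7 calls, as without it, and all genes 10083 for LPS under BHLHE40-Fl, 9815 for LPS in Lyz2Cre, 6121 for the label in controls, 7367 with LPS and 3528 for the interaction. P2ry12 under the BHLHE40-Fl label rests on 9 reads per group, and the 95% interval of its LPS change there ran from -0.14 to 1.53.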
